A study of Mus musculus with 4 samples.

Results

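The mitochondrial ribosomal protein genes, which encode the proteins of the ribosome inside mitochondria, were examined in RNA-Seq libraries of HSCs with and without *Id2*. Members were all genes whose mouse symbol begins with *Mrpl* or *Mrps* followed by a digit, without symbols that contain -ps. This gave 77 of the 19354 genes in the deposited values, 48 of the large (*Mrpl*) and 29 of the small (*Mrps*) subunit by symbol. All 77 are annotated as protein coding, and all 77 had a mean of at least 1 in the counts-per-million unit (CPM) and were tested. *Mrps30* and *Mrps18a*, named for the small subunit, belong to the large one in the systematic naming of ribosomal proteins as mL65 and mL66. *Mrps36* has no place in that naming here, because its product is known as a part of the 2-oxoglutarate dehydrogenase complex. The 3 rows with -ps in the symbol, *Mrps36-ps1*, *Mrpl23-ps1* and *Mrpl48-ps*, are annotated as processed pseudogenes and had a mean of 0.387, 1.16 and 0.546 CPM.

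HSCs were sorted as LSK FLT3- CD48- CD150+ bone marrow cells from mice of 8 to 16 weeks, 2 weeks after pIpC. The control genotype was *Mx1-Cre* with *Id2*+/+, pooled from 14 mice, and the deletion genotype was *Mx1-Cre* with *Id2* fl/fl, called Id2Δ/Δ after pIpC and pooled from 15 mice, over 2 experiments. Both genotypes thus carried *Mx1-Cre*, whose promoter responds to interferon, and both received pIpC, an interferon inducer. Each genotype gave 2 libraries, and the labels do not tie a library to an experiment or to particular mice. The p-values therefore measure only the spread between these libraries, which may be technical. In bulk RNA, fewer cells of a type and less RNA per cell cannot be told apart.

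Depths recovered from the values were 14200000 to 18800000 reads. The targeted gene, *Id2*, was covered by 93 and 98 reads in Id2+/+ HSCs and by 0 in either Id2Δ/Δ library, which allows up to 0.169 and 0.159 CPM there; such limits cover counting error only. All 12 HSC markers (*Kit*, *Procr*, *Mecom* and others) were listed, and their summed level was 5535 and 5660 CPM in Id2+/+ and 4027 and 4677 CPM in Id2Δ/Δ HSCs. Of markers of other cells, those of neutrophils and monocytes (10 of 10 listed) summed to 193 to 306 and 161 to 284 CPM in the genotypes, erythroid (7 of 8) to 46.3 to 57.4 and 45.01 to 67.3, megakaryocyte (5 of 5) to 323 to 339 and 398 to 410, B cell (3 of 6) to 36.8 to 40.8 and 37.7 to 54.0, T and NK cell (3 of 7) to 46.0 to 58.1 and 48.0 to 62.0, and stromal and endothelial markers (3 of 5) to 72.4 to 78.0 and 59.0 to 77.9. The summed HSC and megakaryocyte markers thus differed between genotypes, but single markers went both ways. By log2 fold change (Id2Δ/Δ minus Id2+/+), 9 of 12 HSC markers were lower and 3 higher. Of 5 megakaryocyte markers, 4 were higher and 1 lower. *Kit* (-0.63) and *Pf4* (0.65) weighed heavily in the 2 sums. The part of these markers in the results that follow was not tested. One library stood apart for the members. Id2Δ/Δ replicate 1 was the highest of the 4 libraries for 52 of 77 members, or 67.5%, and for 33.05% of all 15895 genes tested. It also exceeded Id2Δ/Δ replicate 2 for all 10 neutrophil and monocyte markers, against 50.8% of all genes tested. Id2+/+ replicate 1 likewise exceeded Id2+/+ replicate 2 for all 10, against 50.8%. Whether such cells bear on the members was not tested.

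The mitoribosome translates the mRNAs of the mitochondrial genome, all of which encode subunits of the respiratory chain and ATP synthase. Its rRNAs are made in mitochondria, whereas its proteins are encoded in the nucleus, made in the cytosol and imported. Many of these proteins descend from bacterial ribosomal proteins (families named uL and bL in the large and uS and bS in the small subunit), and the others are particular to mitochondria (mL and mS). Quiescent HSCs are known for relying little on mitochondrial respiration.

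The members are encoded at scattered sites of the nuclear genome, each with a start of its own, so their promoters are shown first. RefSeq windows from 250 bases before to 50 bases after the start, on build GRCm38.p6, were given for 68 of 77 members. *Mrpl4*, *Mrpl13*, *Mrpl15*, *Mrpl19*, *Mrpl38*, *Mrpl54*, *Mrps28*, *Mrps34* and *Mrps35* had none. Windows were searched on both strands for CCGGAAG, the letters of an ETS core that NRF2 (GABP) also uses, for GCCATNTT, a YY1 core, and for GCGCATGC, part of the NRF1 motif. The ETS letters were found in 25 members, 36.8%, against 9.93% of all 27025 genes with a window and 19.7% of those that were tested. The YY1 letters were in 21 members, 30.9%, against 6.96% and 9.96%. The NRF1 letters were in 8, 11.8%, against 3.05% and 5.91%. By contrast, the TATA box letters TATAAA were in 5 members, 7.35%, against 15.7% of all genes and 8.60% of those tested. ETS and YY1 letters occurred in the same window in 8 members and shared bases in none of them, and 27 of 68 members had none of the ETS, YY1 and NRF1 letters. Such a match is a description of the letters and not a bound site. The median log2 fold change was 0.13 in members with and 0.16 in members without the ETS letters, 0.16 and 0.14 with and without the YY1 letters, 0.12 and 0.16 with and without the NRF1 letters, and 0.26 and 0.14 with and without TATAAA, which 5 members hold.

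Printed here are the 250 bases before the RefSeq start of the 3 members with the smallest p-values, of *Mrps11*, whose start lies by that of the large-subunit gene *Mrpl46* on the other strand, and of *Mrpl47*, which holds the YY1 letters more than once. In the GENCODE annotation *Mrps5* starts at 127587222 and *Mrpl47* at 32737605. Most of the *Mrps5* stretch and all of the *Mrpl47* stretch thus lie inside the gene as annotated there. All of the *Mrps11* stretch lies inside *Mrpl46* (chr7:78775236-78783531), and its last bases lie inside *Mrps11*, annotated from 78783119. Capitals mark the ETS, YY1 and NRF1 letters, and all other bases are in lower case.
Mrps5 (chr2:127587176-127587425, plus strand): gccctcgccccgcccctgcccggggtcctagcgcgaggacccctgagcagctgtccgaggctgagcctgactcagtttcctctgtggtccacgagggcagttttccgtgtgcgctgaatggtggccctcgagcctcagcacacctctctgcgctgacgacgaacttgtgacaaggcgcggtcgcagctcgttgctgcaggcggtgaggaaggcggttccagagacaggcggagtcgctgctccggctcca
Mrps17 (chr5:129715247-129715496, plus strand): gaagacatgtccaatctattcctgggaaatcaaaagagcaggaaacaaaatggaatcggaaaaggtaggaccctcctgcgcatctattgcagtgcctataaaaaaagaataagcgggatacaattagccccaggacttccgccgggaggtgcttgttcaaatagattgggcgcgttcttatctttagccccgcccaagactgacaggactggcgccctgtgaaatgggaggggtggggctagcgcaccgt
Mrps2 (chr2:28467816-28468065, plus strand): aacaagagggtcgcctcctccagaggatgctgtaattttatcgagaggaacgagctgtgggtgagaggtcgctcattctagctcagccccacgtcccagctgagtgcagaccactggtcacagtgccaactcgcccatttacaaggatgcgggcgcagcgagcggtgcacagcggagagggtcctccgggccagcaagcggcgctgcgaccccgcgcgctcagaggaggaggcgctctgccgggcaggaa
Mrps11 (chr7:78782881-78783130, plus strand): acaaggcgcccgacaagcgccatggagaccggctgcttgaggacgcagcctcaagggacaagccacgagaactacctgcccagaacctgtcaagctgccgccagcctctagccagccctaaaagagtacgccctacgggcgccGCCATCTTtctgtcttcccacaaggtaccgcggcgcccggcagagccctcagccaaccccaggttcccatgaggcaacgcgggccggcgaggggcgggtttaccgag
Mrpl47 (chr3:32736756-32737005, minus strand): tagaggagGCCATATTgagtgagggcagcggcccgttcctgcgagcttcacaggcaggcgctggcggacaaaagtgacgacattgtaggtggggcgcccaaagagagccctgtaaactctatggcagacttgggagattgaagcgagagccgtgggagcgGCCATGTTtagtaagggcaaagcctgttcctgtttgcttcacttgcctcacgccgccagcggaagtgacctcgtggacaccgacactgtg
The ETS, YY1 and NRF1 letters occurred in none of the stretches of *Mrps5*, *Mrps17* and *Mrps2*, while that of *Mrps17* held TATAAA once, left in lower case. The YY1 letters stood once in that of *Mrps11* and 2 times in that of *Mrpl47*.

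Starts close to that of another gene were counted next, by the GENCODE starts and not the RefSeq starts of the printed stretches. A protein-coding gene on the other strand began within 1000 bases of the start of 33 members, 42.9%, against 16.9% of the 12366 coding genes tested. In these pairs the 2 genes point away from each other or overlap at their first bases. *Mrpl46* (large subunit) and *Mrps11* (small subunit) form such a pair on chromosome 7, with annotated starts 412 bases apart. The partners of *Mrpl36*, *Mrpl47* and *Mrpl43* also serve mitochondria, being the complex I genes *Ndufs6* and *Ndufb5* and the DNA helicase gene *Twnk*, and *Mrps12* is paired with *Sars2*, a mitochondrial seryl-tRNA synthetase. These examples were picked by role, and the share of partners with a mitochondrial role was not counted. The partner did not always lie on the same side as the member in these libraries. *Mrps5* was higher in Id2Δ/Δ HSCs by 0.61, a change that did not pass adjustment for all genes tested. Its partner *Zfp661*, whose start is 128 bases away, was lower by a log2 fold change of -0.40 (SE 0.29), which was not significant. *Zfp661* was at 4.71 and 3.92 log2 CPM in Id2+/+ and 3.89 and 3.92 in Id2Δ/Δ HSCs, so that its difference came from Id2+/+ replicate 1.

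Levels within the mitoribosome were then compared as CPM per kb of the longest coding transcript, a scale that depends on the transcript chosen. The median over the 77 members was 27.4 CPM per kb, with quartiles of 17.0 and 43.5, and the highest was 24.0 times the lowest. By family the medians were 32.7 in uL/bL, 26.2 in mL, 30.8 in uS/bS and 17.1 CPM per kb in mS genes.

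**Figure D1:**
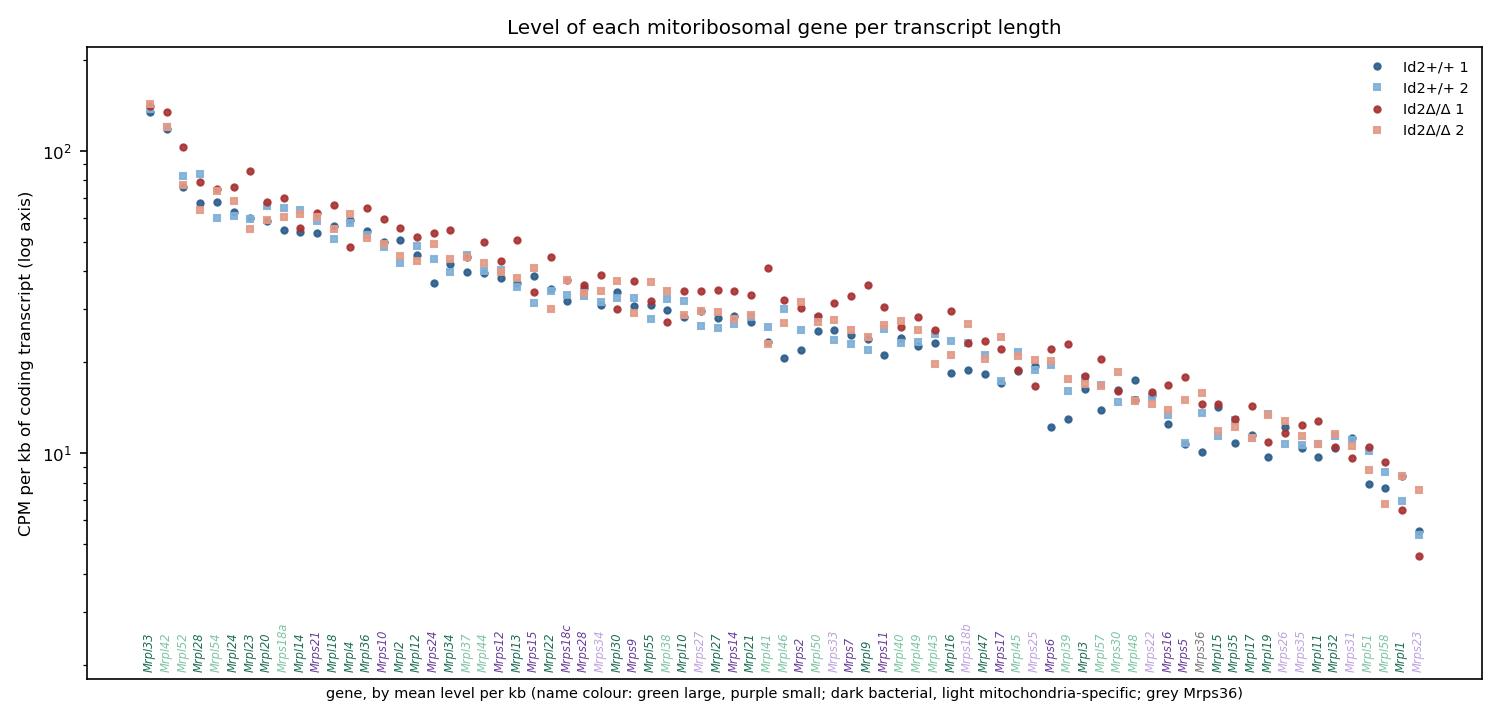
Level of each of the 77 mitoribosomal genes in CPM per kb of its longest coding transcript (log axis), ordered by the mean of the 4 libraries, with 1 point per library. Levels run from 139 CPM per kb for *Mrpl33* to 5.76 for *Mrps23*, and *Mrpl33* and *Mrpl42* lie above the other genes in each library.

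The highest level was that of *Mrpl33* (bL33 family), with 134 and 137 CPM per kb in Id2+/+ and 140 and 142 in Id2Δ/Δ HSCs. Next came *Mrpl42*, with 118 and 119 against 134 and 120, *Mrpl52*, with 75.7 and 82.5 against 103 and 77.2, *Mrpl28*, with 67.1 and 84.0 against 78.7 and 63.9, and *Mrpl54*, with 67.5 and 59.8 against 74.95 and 73.3. *Mrpl33* and *Mrpl42* did not overlap with the other 3 in any library. The order of *Mrpl52*, *Mrpl28* and *Mrpl54* was within the spread of the libraries.
The lowest mean level was that of *Mrps23*, with 5.54 and 5.35 CPM per kb in Id2+/+ and 4.58 and 7.59 in Id2Δ/Δ HSCs, from 113, 120, 114 and 195 reads. Above it lay *Mrpl1*, with 8.40 and 6.95 against 6.52 and 8.43, *Mrpl58*, a peptidyl-tRNA hydrolase built into the large subunit, with 7.68 and 8.68 against 9.33 and 6.82, *Mrpl51*, with 7.93 and 10.2 against 10.5 and 8.79, and *Mrps31*, with 11.2 and 11.04 against 9.67 and 10.6 CPM per kb. The ranges of *Mrps23*, *Mrpl1* and *Mrpl58* overlapped, and in Id2Δ/Δ replicate 2 *Mrpl58* was below *Mrps23*. Those of *Mrpl51* and *Mrps31* overlapped too. Each library correlated with the mean of the other 3 across the members at r = 0.95 to 0.98 in log2 CPM (a correlation across genes, which are not replicates).

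Whether *Id2* deletion went with a change in the members was examined with limma on the log2 CPM values. No gene of the whole table passed an adjusted p-value of 0.05, which is 0% of 15895 genes, and the smallest adjusted p was 0.910. None of the 77 members was therefore called. Nor was the deleted gene *Id2*, with a log2 fold change of -7.31, an unadjusted limma p of 1.81e-04 and an adjusted p of 0.910. Its Id2Δ/Δ values of -4.25 and -5.04 log2 CPM stand for 0 reads. The size and p of this change therefore depend on the value given to 0 reads. A lack of calls in this fit thus does not show a lack of change. Without adjustment, 3 members had a limma p under 0.05 with a higher level in Id2Δ/Δ HSCs, against 273 genes or 1.72% of all genes tested, and 0 had one with a lower level, against 469 genes or 2.95%. The median standard error of a member was 0.18 and the median 95% interval reached 0.41 to either side of the log2 fold change.

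The log2 fold changes of the members nevertheless lay mostly on one side. The log2 fold change (Id2Δ/Δ minus Id2+/+) was above 0 for 66 of 77 members, 85.7%, and below 0 for 11, where 51.7% of all genes tested were above 0. Its median was 0.16 over the members, with quartiles of 0.053 and 0.24, and 0.011 over all genes tested. Both Id2Δ/Δ libraries exceeded both Id2+/+ libraries for 31 members, 40.3%, against 19% of all genes tested, and both lay below for 2, 2.60%, against 15.8%. No set test was run, so these counts are descriptions. With 2 libraries against 2, the smallest two-sided exact permutation p that a single value can reach is 0.333.
The size of the difference depended on the library. The median over the members was 0.25 for Id2Δ/Δ replicate 1 minus Id2+/+ replicate 1 and 0.17 against Id2+/+ replicate 2, but 0.11 and 0.045 for Id2Δ/Δ replicate 2. The Id2Δ/Δ libraries themselves differed by a median of 0.17, replicate 1 being higher for 54 of 77 members, while the Id2+/+ libraries differed by -0.036. Without Id2Δ/Δ replicate 1 the median was 0.084, and without Id2Δ/Δ replicate 2 it was 0.23. The median SD of a member was 0.087 between the Id2+/+ and 0.17 between the Id2Δ/Δ libraries, where all genes tested had 0.13 and 0.20.

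**Figure D2:**
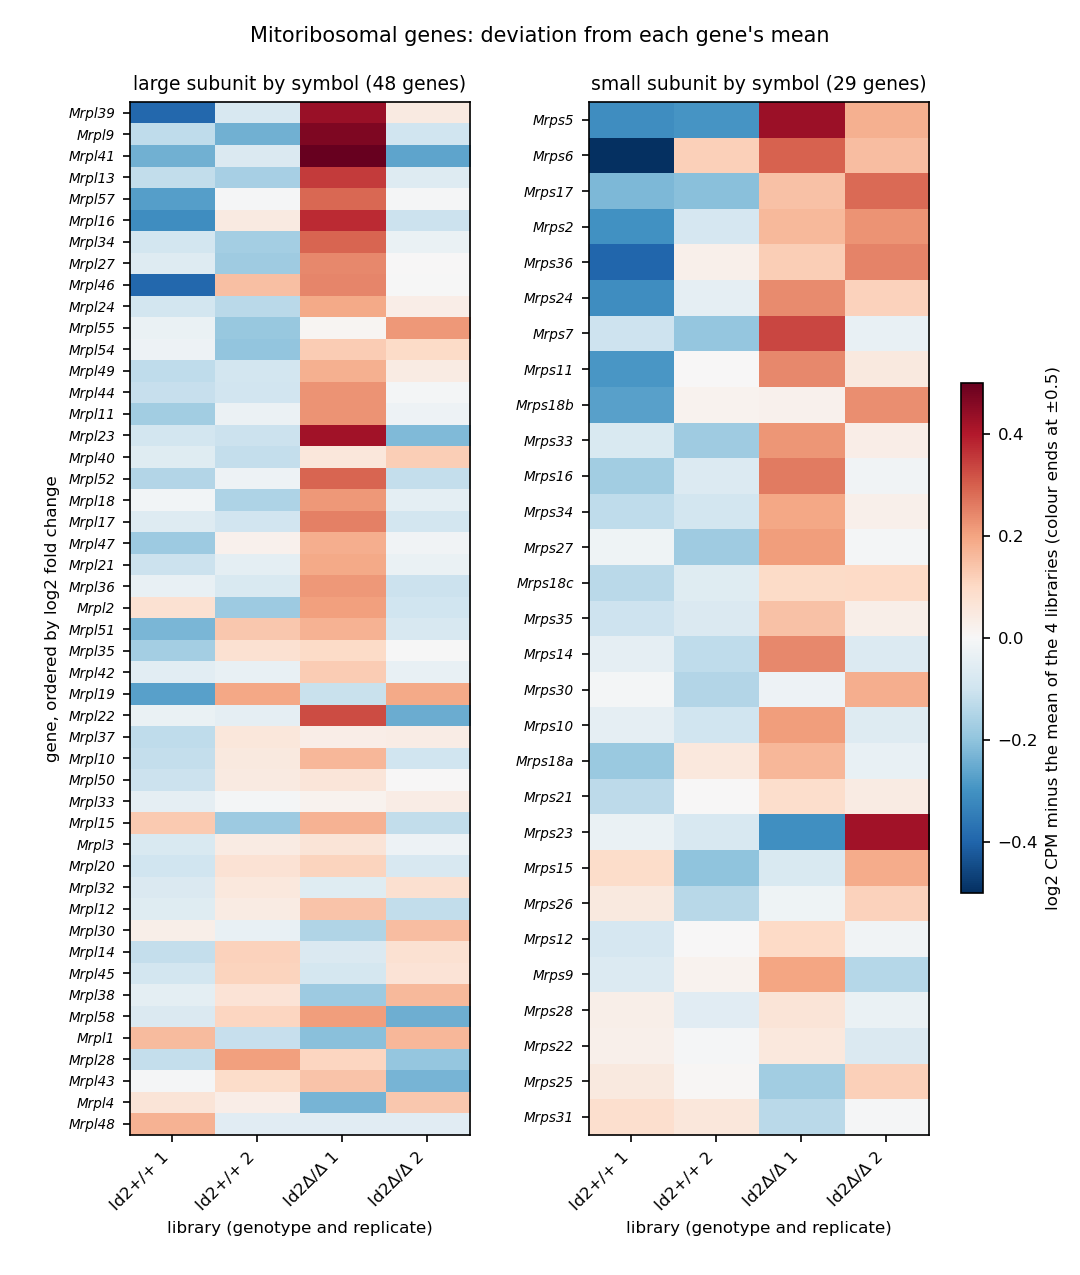
Deviation of each member from its own mean over the 4 libraries, in log2 CPM (colour, ending at ±0.5), with genes in rows by symbol and fold change and libraries in columns. The column of Id2Δ/Δ replicate 1 is the highest for 52 of 77 genes and that of Id2+/+ replicate 1 the lowest for 38, while Id2Δ/Δ replicate 2 is highest for 18 and lowest for 11.

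*Mrps5*, *Mrps17* and *Mrps2* were the 3 members with an unadjusted p under 0.05, and all are small-subunit proteins of bacterial families. *Mrps5* (ENSMUSG00000027374.12, chr2:127587222-127606829 of GRCm38, plus strand, 12 exons), whose protein lines the mRNA entry of the small subunit, was at 5.58 and 5.60 log2 CPM in Id2+/+ and 6.32 and 6.07 in Id2Δ/Δ HSCs. Its log2 fold change was 0.61 (SE 0.16), with an unadjusted limma p of 0.00527 and an adjusted p of 0.910. The 2 control libraries were almost equal, and both deletion libraries lay above them.
*Mrps17* (ENSMUSG00000034211.14, chr5:129715497-129722556, plus strand), of the uS17 family of rRNA-binding proteins, was at 6.43 and 6.45 log2 CPM in Id2+/+ and 6.81 and 6.94 in Id2Δ/Δ HSCs. The log2 fold change was 0.43 (SE 0.13), with an unadjusted limma p of 0.0112 and an adjusted p of 0.910. Here Id2Δ/Δ replicate 2 was the higher one.
*Mrps2* (ENSMUSG00000035772.11, chr2:28468066-28471178, plus strand), of the uS2 family, was at 5.51 and 5.73 log2 CPM in Id2+/+ and 5.97 and 6.04 in Id2Δ/Δ HSCs, with a log2 fold change of 0.39 (SE 0.15). Its unadjusted limma p was 0.0390 and its adjusted p 0.910. Leaving out each library in turn gave 0.48 to 0.73 for *Mrps5*, 0.36 to 0.50 for *Mrps17* and 0.28 to 0.49 for *Mrps2*. These 3 genes overlap no other annotated gene.

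The next members by p-value were less even. *Mrpl39* (mL39) was at 4.89 and 5.21 log2 CPM in Id2+/+ and 5.72 and 5.33 in Id2Δ/Δ HSCs, *Mrps24* (uS3 family, also at the mRNA entry) at 5.18 and 5.45 against 5.73 and 5.61, and *Mrpl9* (bL9 family) at 5.30 and 5.19 against 5.90 and 5.33. None of the 3 overlapped between genotypes, with log2 fold changes of 0.47 (SE 0.21), 0.35 (SE 0.17) and 0.37 (SE 0.22). Their intervals included 0, and *Mrpl9* was at 0.085 without Id2Δ/Δ replicate 1.
The other 25 members whose Id2Δ/Δ libraries both lay above had log2 fold changes from 0.056 (*Mrpl33*) to 0.45 (*Mrps6*), and 29 of the 77 members were within 0.1 of 0. *Mrps6*, of the bS6 family, was at 3.37 and 4.05 log2 CPM in Id2+/+ and 4.23 and 4.09 in Id2Δ/Δ HSCs (SE 0.29), so that most of its difference came from Id2+/+ replicate 1. Without that library its log2 fold change was 0.11.
On the lower side, *Mrpl48* and *Mrps31* were the 2 members whose Id2Δ/Δ libraries both lay below. *Mrpl48* was at 6.231 and 6.002 log2 CPM in Id2+/+ and 6.0006 and 6.0004 in Id2Δ/Δ HSCs, a log2 fold change of -0.12 (SE 0.15), and *Mrps31* at 4.09 and 4.06 against 3.87 and 4.002, or -0.14 (SE 0.22). For *Mrpl48* the separation from Id2+/+ replicate 2 was in the third decimal. *Mrpl4* (-0.098, SE 0.16), *Mrpl43* (-0.088, SE 0.20), *Mrpl28* (-0.083, SE 0.17) and *Mrps25* (-0.053, SE 0.14) overlapped between genotypes, and no member was below -0.14.

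**Figure D3:**
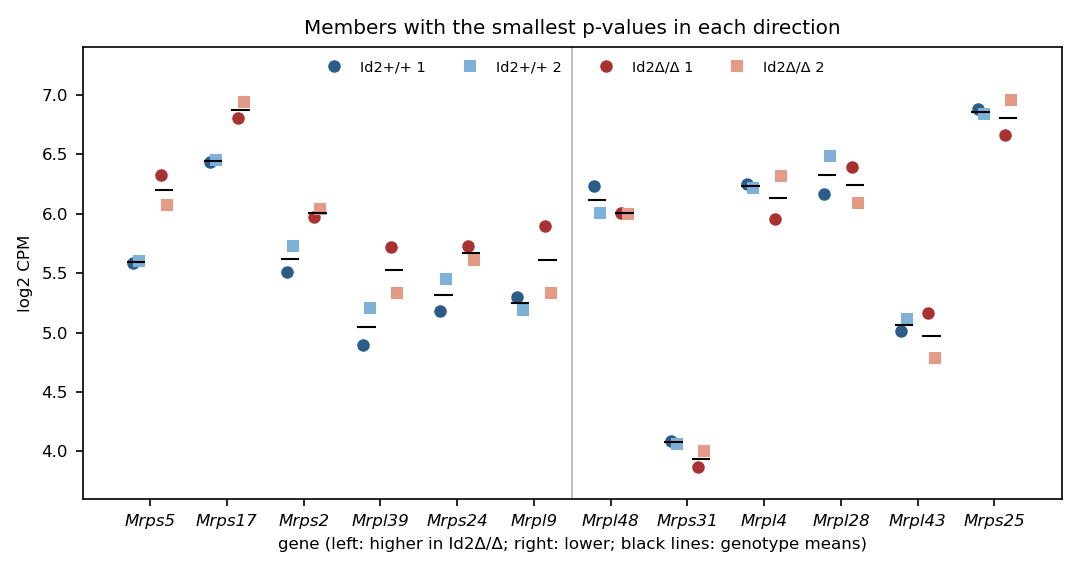
Log2 CPM of the 6 members with the smallest p-values in each direction, with 1 point per library and black lines at the genotype means. *Mrps5*, *Mrps17* and *Mrps2* show both Id2Δ/Δ libraries above both Id2+/+ libraries, which lie close together in the first 2 genes and 0.22 apart in *Mrps2*, whereas of the 6 lower members all but *Mrpl48* and *Mrps31* overlap.

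The subunits were set side by side. The median log2 fold change was 0.10 in the 48 large-subunit genes, with 40 above 0, and 0.17 in the 29 small-subunit genes, with 26 above 0. Deletion libraries lay above both controls in 15 of 48 and 16 of 29 genes, and below in 1 of each, where 19% and 15.8% of all genes tested did so. By the systematic names, with *Mrps30* and *Mrps18a* in the large and *Mrps36* in no subunit, the medians were 0.11 (50 genes) and 0.19 (26 genes). No test of the difference between subunits was run, and the medians moved with the libraries. Without Id2Δ/Δ replicate 1 they were 0.060 and 0.14, and without Id2Δ/Δ replicate 2 both were higher, at 0.21 and 0.23. For Id2Δ/Δ replicate 2 minus Id2+/+ replicate 2 alone, the large-subunit median was 0.00 and the small-subunit median 0.12.
Among families, all 16 uS/bS genes had a log2 fold change above 0, with a median of 0.22 and 10 genes without overlap (against 19% of all genes tested). Both Id2Δ/Δ libraries also lay above in 9 of 30 uL/bL, 6 of 20 mL and 5 of 10 mS genes, and below in 0, 1 and 1 (15.8% of all genes tested). In these other families the log2 fold change was above 0 in 27 of 30 uL/bL genes (median 0.10), 15 of 20 mL genes (0.14) and 7 of 10 mS genes (0.14). These medians too moved with the library. Against the Id2+/+ replicates, the uS/bS median was 0.33 and 0.24 for Id2Δ/Δ replicate 1 and 0.16 and 0.056 for replicate 2, and the uL/bL median 0.24 and 0.22 for replicate 1 and 0.058 and 0.0096 for replicate 2. The mL median was 0.23 and 0.12 for replicate 1 and 0.15 and -0.010 for replicate 2, and the mS median 0.13 and 0.089 for replicate 1 and 0.089 and 0.14 for replicate 2. The 3 members with a p under 0.05 were all among the uS/bS genes.

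**Figure D4:**
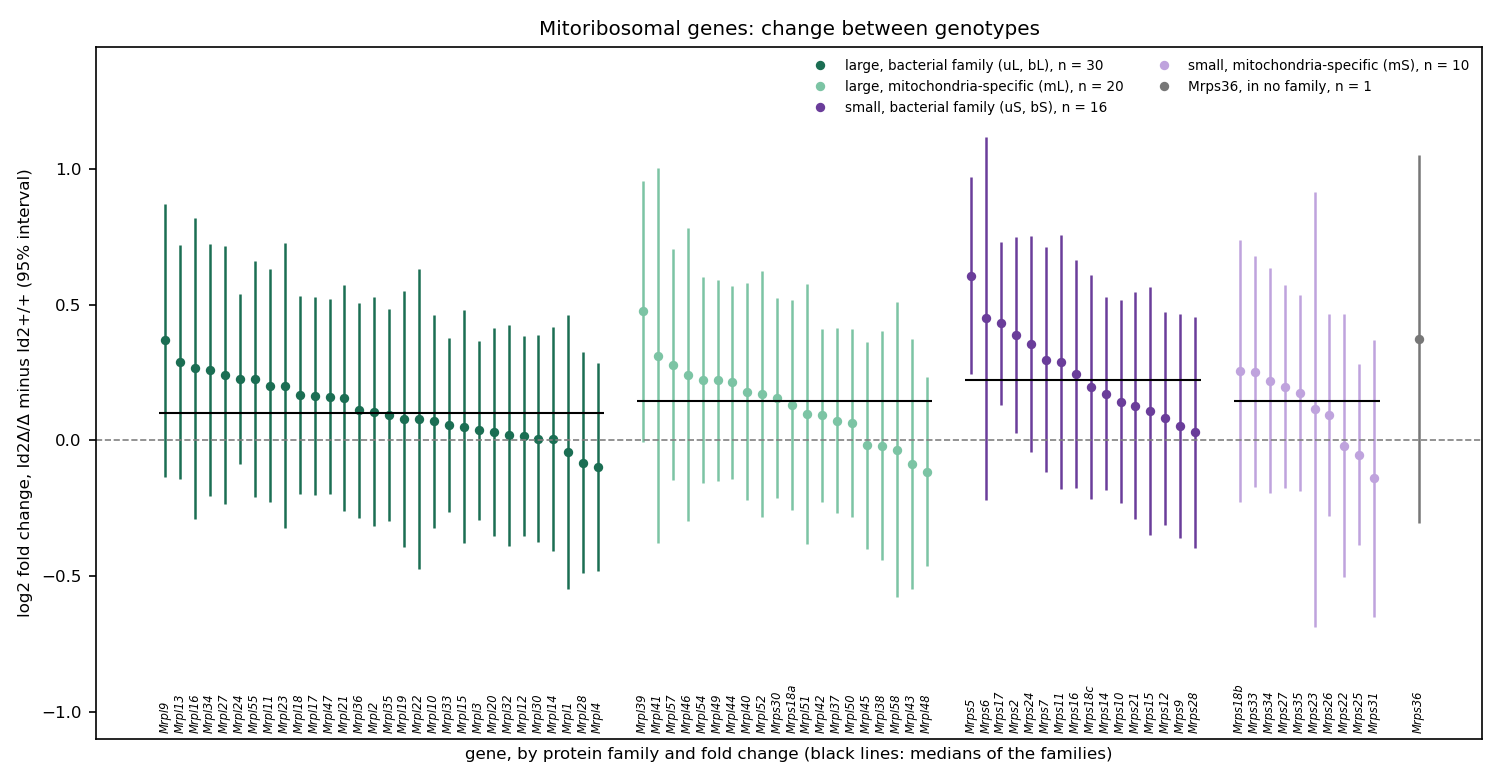
Log2 fold change (Id2Δ/Δ minus Id2+/+) of each member with its 95% limma interval, grouped by protein family, with *Mrps30* and *Mrps18a* among the mL genes and black lines at the family medians of 0.10, 0.14, 0.22 and 0.14. The intervals of 3 genes, *Mrps5*, *Mrps17* and *Mrps2*, do not include 0.

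Members of known role were read as well. *Mrpl12*, which binds translation factors at the stalk of the large subunit, was at 5.89 and 5.995 log2 CPM in Id2+/+ and 6.10 and 5.83 in Id2Δ/Δ HSCs, a log2 fold change of 0.017 (SE 0.16). The 3 *Mrps18* genes are related to 1 bacterial protein family but take different places in the particle. *Mrps18c*, the uS/bS member, was at 4.70 and 4.77 against 4.93 and 4.94 (0.20, SE 0.18), *Mrps18b* at 4.35 and 4.64 against 4.64 and 4.86 (0.25, SE 0.21), and *Mrps18a* at 5.59 and 5.83 against 5.95 and 5.74 (0.13, SE 0.17). *Mrps18a* overlapped between genotypes and the other two did not, *Mrps18b* only in the third decimal (4.639 against 4.644). *Mrps30* was at 5.75 and 5.62 log2 CPM against 5.74 and 5.95 (0.16, SE 0.16), *Mrpl58* at 4.32 and 4.49 against 4.60 and 4.15 (-0.034, SE 0.23), and *Mrps36* at 2.82 and 3.25 against 3.35 and 3.47 (0.37, SE 0.29). All 3 intervals included 0.
The Id2Δ/Δ libraries differed most from each other in *Mrpl41*, at 4.99 and 4.15 log2 CPM against 4.18 and 4.35 in Id2+/+, in *Mrps23*, at 2.68 and 3.41 against 2.96 and 2.91, and in *Mrpl23*, at 5.98 and 5.34 against 5.46 and 5.45. In *Mrpl41* and *Mrpl23*, Id2Δ/Δ replicate 1 was above and replicate 2 below both Id2+/+ libraries, and in *Mrps23* it was the reverse. *Mrpl23* also has a processed pseudogene, with which reads may have been shared.
The neighbouring pair *Mrpl46* and *Mrps11* was at 4.55 and 5.09 against 5.18 and 4.94 and at 4.47 and 4.77 against 5.004 and 4.81 log2 CPM. Both genes were lowest in Id2+/+ replicate 1 and highest in Id2Δ/Δ replicate 1, with log2 fold changes of 0.24 (SE 0.23) and 0.29 (SE 0.20). Their annotated bodies overlap, and whether reads were counted by strand is not stated, so reads could have been assigned to either. Over all members, 41 overlap another annotated gene and 25 a coding one. The median log2 fold change was 0.18 in those 25 and 0.16 in the 36 that overlap no gene.

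The other parts of mitochondrial translation are given by lists of genes. None of these genes was called by limma (0% of all genes tested). Mitoribosomal proteins with other symbols had a median log2 fold change of 0.073, with 4 of 5 above 0. In this list *Ptcd3*, an RNA-binding small-subunit protein, was at 6.95 and 6.84 log2 CPM in Id2+/+ and 6.65 and 6.91 in Id2Δ/Δ HSCs (-0.11, SE 0.14), and *Aurkaip1* at 5.48 and 5.45 against 5.77 and 5.63 (0.23, SE 0.15). Assembly and rRNA modification genes, of which 23 of 25 were tested, had a median of 0.071, with 14 above and 9 below 0. The rRNA methyltransferase *Nsun4* lay below in both Id2Δ/Δ libraries, at 5.25 and 5.22 against 4.71 and 4.99 (-0.38, SE 0.18), and the RNA helicase *Dhx30* was at 7.48 and 7.57 against 7.42 and 7.76 (0.065, SE 0.14). Translation factors had a median of 0.021, with 10 of 15 above 0. Their list also holds *Lrpprc*, *Slirp* and *Oxa1l*, which are not translation factors in the strict sense (0.023, 0.19 and 0.11). The translational activator *Taco1* was at 2.54 and 2.61 against 3.10 and 3.33 log2 CPM (0.64, SE 0.30), and the elongation factor-like GTPase *Guf1* at 7.61 and 7.55 against 7.60 and 7.79 (0.11, SE 0.12). The list of aminoacyl-tRNA synthetases, which charge mitochondrial tRNAs, had a median of -0.033, with 8 of 20 above 0. It also holds *Qrsl1*, *Gatb* and *Gatc*, subunits of an amidotransferase and not synthetases, all below 0 (-0.036, -0.090 and -0.31). In the list *Lars2*, the most abundant, was at 11.31 and 11.59 against 11.73 and 11.43 (0.14, SE 0.13) and *Cars2* at 6.18 and 6.06 against 6.60 and 6.33 (0.34, SE 0.15). The level of *Lars2* stood far from its list, at 755 CPM per kb where the median of the list was 13.4. Whether all reads counted for *Lars2* came from its mRNA was not tested.
Genes of mitochondrial DNA and RNA synthesis had a median of 0.13, with 8 of 11 above 0. The mitochondrial DNA-packaging factor *Tfam* was at 5.97 and 5.99 log2 CPM in Id2+/+ and 6.42 and 6.19 in Id2Δ/Δ HSCs (0.33, SE 0.15), and the DNA-binding protein gene *Ssbp1* at 7.02 and 6.84 against 7.07 and 7.07 (0.14, SE 0.13). Both were without overlap. Of the mRNAs that the mitoribosome translates, 11 of 13 were tested, with a median of 0.23, 9 above 0 and 2, *mt-Co1* and *mt-Cytb*, at 0. However, Id2+/+ replicate 1 alone was the lowest library for 9 of the 11, and the median against Id2+/+ replicate 2 was 0.00 and 0.013. *mt-Nd3*, *mt-Co2*, *mt-Atp6* and *mt-Co3* averaged only 1.33, 16.3, 27.0 and 35.7 CPM, and the others tested 309 CPM (*mt-Nd6*) or more. The log2 fold changes of these low rows, 0.50, 0.24, 0.37 and 0.36, all lay above the median of the list, which therefore leans on them. *mt-Nd6*, encoded on the other strand than the remaining mRNAs, was at 8.01 and 8.13 against 8.52 and 8.38 (0.38, SE 0.11), with an unadjusted limma p of 0.0104 and an adjusted p of 0.910. *mt-Co1* had the same value, 12.01, in the 4 libraries, because the authors' scaling gives equal values to genes of equal rank, so differences of the most abundant genes are compressed to steps between ranks. The same holds for the large-subunit rRNA *mt-Rnr2*, at 12.39 and 12.62 against 12.62 and 12.39. The small-subunit rRNA *mt-Rnr1* was at 10.98 and 11.27 against 11.43 and 11.02 (0.10, SE 0.15).

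Cytosolic ribosomal protein genes and nuclear-encoded oxidative phosphorylation genes were set beside the members for comparison, without a test of the difference. Their median log2 fold changes were 0.18 (80 tested) and 0.17 (77 tested), near the 0.16 of the members. The log2 fold change was above 0 for 96.25% and 89.6% of them (members 85.7%, all genes tested 51.7%). Both Id2Δ/Δ libraries lay above in 32.5% and 49.4% (members 40.3%, all genes 19%), and below in 0% of each (2.60% and 15.8%). An unadjusted limma p under 0.05 with a higher level was found for 1 and 6 genes, against 3 members. A one-sided shift was thus not particular to the members. In both lists, the dependence on 1 library was also seen. Id2Δ/Δ replicate 1 was the highest library for 95% of the cytosolic and 87.0% of the oxidative phosphorylation genes, and the medians of Id2Δ/Δ replicate 2 minus the Id2+/+ replicates were 0.015 and 0.00 in the cytosolic and 0.081 and 0.032 in the oxidative phosphorylation genes. For the members these values were 0.11 and 0.045, and for the small-subunit genes 0.15 and 0.12. Assembly genes had -0.011 and -0.040 with Id2Δ/Δ replicate 1 and 0.086 and 0.11 with Id2Δ/Δ replicate 2.

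**Figure D5:**
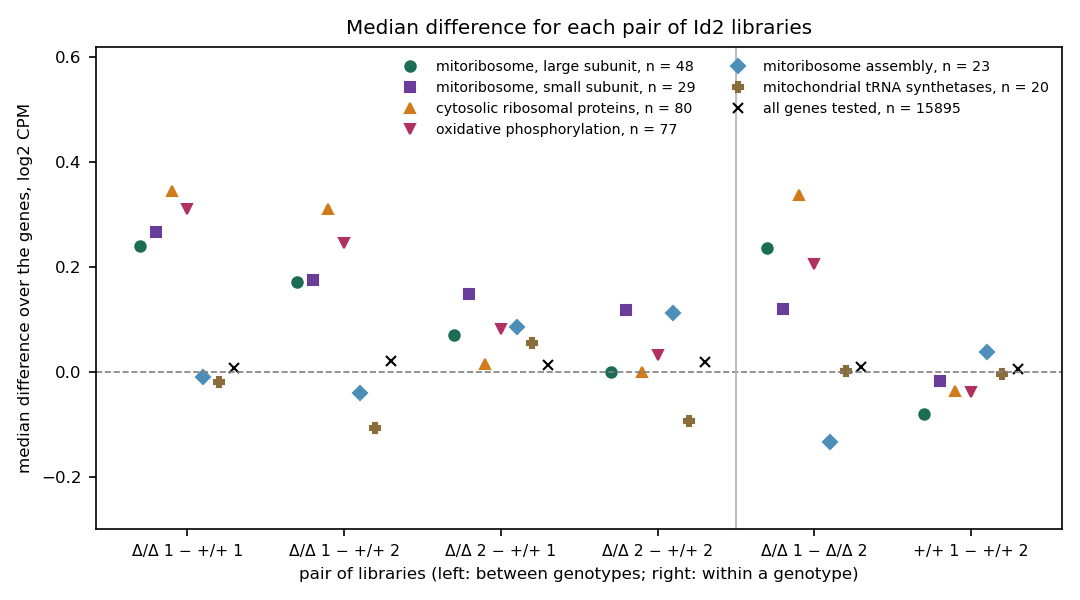
Median difference in log2 CPM over the genes of each list for each pair of libraries, with pairs between genotypes to the left of the grey line and within a genotype to its right. The pairs with Id2Δ/Δ replicate 1 show medians of 0.17 to 0.27 for the large and small subunit and up to 0.35 for the cytosolic ribosomal proteins, and the 2 Id2Δ/Δ libraries differ from each other by 0.24, 0.12 and 0.34 in these lists.

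Transcript length was compared with the fold changes. The median length was 1339 bases in the members and 2735 in the genes tested, and the log2 fold change correlated with log2 length at r = -0.12 across the genes tested and r = -0.061 across the members, both across genes. With each library corrected for a smooth trend with length, the median was 0.12 over the members, 0.10 in the large and 0.19 in the small subunit.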

How the data were processed

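HSC RNA was measured by RNA-Seq in 4 libraries, 2 per genotype, grouped by the labels. The authors deposited log2 CPM values per gene, quantile-normalized. This unit was read from the values, which sum to 999980 to 999996 CPM per library, with the 4 sorted columns within 0.1 of each other in 88.4% of ranks. The submitters' processing notes name CASAVA 1.8.4, Trimmomatic 0.30, TopHat2 2.0.8, RSEM, STAR and the builds mm9 and NCBIM37, without roles. Strand use and the treatment of reads shared between copies are not given in the sources used here.

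From these values, reads were recovered by the rank of distinct low values. The 15895 genes averaging 1 CPM or more were tested on the log2 scale, without a pseudocount, by limma 3.58.1 (lmFit and eBayes with an intensity trend, R 4.3.3), two-sided, with Benjamini-Hochberg adjustment and genotype as the only term. The script was tested on simulated data. Coordinates and transcript lengths come from GENCODE M21 (GRCm38), joined on Ensembl IDs (99.7% of genes found, 82.0% with the same version), and not from the submitters' build. Promoters are RefSeq's.

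Genes were named by a rule: members past the threshold or, failing that, the 6 smallest p-values in each direction, the 5 highest and 5 lowest levels per kb, the 3 members that differed most between Id2Δ/Δ libraries, 7 members of known role, and the most abundant and smallest-p gene of each other list. *Mrps11* and *Mrpl46*, *Mrpl47*, *Mrps6* and the partner genes were chosen after their values were seen. The members and lists were chosen with earlier results of these data known. Alternatives varied the filter, trend, pseudocount, scaling, length correction, replicate number and libraries included.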

Additional observations from a re-analysis of the deposited data

How the results depend on the processing

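The median log2 fold change of the members stayed above 0 under every alternative run (no filter, a mean of at least 10 CPM, no intensity trend, a pseudocount of 1 CPM, median-ratio rescaling, length correction, the replicate block, and libraries left out). Leaving out 1 library gave medians of 0.084 to 0.23 for all members. They were 0.060 to 0.21 for the large and 0.14 to 0.23 for the small subunit. Each such fit leaves 1 library in a genotype, so its counts are descriptions. From 1 to 11 members were higher with an unadjusted limma p under 0.05, and 0 were lower with one. Of all genes tested, 0.642% to 6.46% were higher with such a p in the same fits. Without overlap, 41 to 60 members were higher (31.8% to 40.1% of all genes) and 2 to 12 lower (27.5% to 36.9%). With 3 libraries, a lack of overlap is easier to reach. The 11 and the 60 came without Id2Δ/Δ replicate 2. The libraries of replicate number 1 alone gave 0.25 for all members, 0.24 for the large and 0.27 for the small subunit, and those of number 2 alone gave 0.046, 0.00 and 0.12. The cause was not tested. Replicate numbers pair nothing in the labels, and deviations of same-numbered libraries correlated at 0.059 over all genes and -0.095 over the members. With replicate number as a block, 1 gene of the table, not a member, was called instead of 0, and 4 members had an unadjusted p under 0.05 instead of 3.

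With the length correction, with or without the block, *Mrpl12* was at -0.026, *Mrpl33* at -0.045 and *Mrps25* at 0.036. Leaving out 1 library turned the sign of 35 of the 77 members, 20 of them without Id2Δ/Δ replicate 1. Of the members named by the rule these were *Mrpl1* (-0.23 to 0.14), *Mrpl12* (-0.12 to 0.15), *Mrpl51* (-0.085 to 0.28), *Mrpl28* (-0.24 to 0.079), *Mrpl58* (-0.26 to 0.19), *Mrpl23* (-0.12 to 0.52), *Mrpl4* (-0.28 to 0.084), *Mrpl41* (-0.11 to 0.73), *Mrpl52* (-0.033 to 0.38), *Mrps25* (-0.20 to 0.094), *Mrpl43* (-0.28 to 0.10) and *Mrps23* (-0.25 to 0.48). *Mrpl46* ranged from -0.029 to 0.51.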
